A study of Mus musculus with 27 samples.

Results

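The 10 circadian clock genes *Arntl*, *Npas2*, *Clock*, *Per1*, *Per2*, *Per3*, *Cry1*, *Nr1d1*, *Nr1d2* and *Dbp* were followed by RNA-seq in liver, omental adipose tissue and skeletal muscle of *Mlx*KO mice. They were taken by symbol and are 10 of the 36333 genes of the deposited table. The mice were males from a cross of *Mlx* Flox/Flox animals with a B6.129 strain that carries the tamoxifen-inducible fusion cre/ERT2 (allele Tyj) in the Gt(ROSA)26Sor locus, whose promoter is active in nearly all cells. Mice of both ages received tamoxifen around weaning (75 mg/kg, 5 daily injections), so genotype and treatment were the same for every sample, and WT samples were not analysed here. The study gives the vehicle as corn oil in its results and as mineral oil in its methods. The loss of *Mlx* was not equally complete. The study's own assay of *Mlx* transcripts, in animals whose numbers match these, found more left in muscle than in adipose tissue and least in liver. The remainder differed between mice, so tissue and extent of the loss cannot be told apart. The 27 samples comprised, for every tissue, 4 of age 5 months and 5 of age 20 months. The ages are those of the labels, while the names of the older samples begin with X18 and other material of the study gives these animals as somewhat younger, and the sources used here do not settle which age holds. The same 4 mice gave all 3 tissues at 5 months and are named here by their liver samples, X5L4299, X5L5001, X5L5238 and X5L5239, with F or S in place of L in the adipose tissue and muscle samples. The samples at 20 months were numbered 16, 17, 18, 19 and 74 in liver, from 36 through 40 in adipose tissue and from 56 through 60 in muscle, with no number shared between tissues. The time of day at which tissues were taken is not given in the sources used here, and therefore age and time of collection cannot be told apart in any comparison of 20 with 5 months.

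The clock is a delayed feedback loop of transcription. BMAL1, encoded by *Arntl*, pairs with CLOCK or with its relative NPAS2, binds E-box sequences and activates *Per*, *Cry*, *Nr1d1*, *Nr1d2* and *Dbp*. The PER and CRY proteins then block that activity, and the nuclear receptors REV-ERB alpha and REV-ERB beta (*Nr1d1* and *Nr1d2*) repress *Arntl*, *Npas2* and *Cry1*. In the peripheral tissues of mice *Nr1d1*, *Dbp* and *Per3* are known to peak during the day, *Per2* later, and *Cry1*, *Npas2* and *Arntl* toward the end of the night, so that *Dbp* and *Arntl* run nearly opposite to each other. A single sample per mouse reads 1 unknown point of that cycle, and the relation between genes of the same sample is what such data can show.

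The promoter stretches below are shown because they hold letters of the E-box, the D-box or a receptor half-site, as defined next. RefSeq windows (GRCm38.p6) from 250 bases before to 50 bases after a start site were matched by gene number for 9 of the 10 genes, 13 windows in all, and were searched on both strands for the E-box letters CACGTG, the D-box letters TTATGTAA, which DBP binds, and the half-site AGGTCA of the REV-ERB and ROR receptors. Capitals mark a match, and no marked match overlaps another.
*Per3*, chr4:151044766-151044915, minus strand: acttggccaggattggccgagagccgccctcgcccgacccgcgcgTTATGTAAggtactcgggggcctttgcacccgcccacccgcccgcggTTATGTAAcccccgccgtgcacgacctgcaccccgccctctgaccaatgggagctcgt
*Cry1*, chr10:85185075-85185144, minus strand: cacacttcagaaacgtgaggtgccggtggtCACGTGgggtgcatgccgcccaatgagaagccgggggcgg
*Per1*, chr11:69098769-69098828, plus strand: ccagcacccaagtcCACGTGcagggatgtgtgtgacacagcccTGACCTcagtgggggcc
The *Per3* window held the D-box letters at 205 and 158 bases before the start site, and no other member window held them. Of all 32851 windows, 0.938% held the D-box letters and 7 windows (0.0213%) held them more than once. The E-box letters were present in the *Cry1* window and in 1 *Per1* window, against 7.15% of all windows. The half-site letters stood in windows of *Per1* (as TGACCT on the printed strand), *Clock*, *Arntl* and *Nr1d2*, against 16.3% of all windows. The windows of *Per1*, *Clock* and *Arntl* with a match lie wholly within their genes, at internal start sites. The printed *Per1* stretch is therefore not the sequence before the first base of the gene. None of the 3 printed stretches overlaps an exon of its gene, and a match describes letters only.

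Reads on genes numbered 14384695 to 25673919 per sample. *Mlx* itself, whose value also sums reads from exons outside the deleted segment, did not pass the test between ages in any tissue (limma adjusted p = 0.168 in liver, 0.349 in adipose tissue and 0.503 in muscle). The tissue labels held: the summed value of 5 liver markers was 43102 to 159463 in liver and at most 318 elsewhere, that of 5 adipocyte markers 5886 to 13229 in adipose tissue and at most 439 elsewhere, and that of 5 muscle fibre markers 123678 to 158672 in muscle and at most 835 elsewhere. Within liver the liver markers themselves summed to 100476 to 159463 at 5 months and 43102 to 95552 at 20 months, with 1 of 5 called (*Cps1*, lower). Markers of other cell types moved with age: all 4 B cell markers were higher at 20 months in liver (summed value 1.24 to 6.48 at 5 months, 6.63 to 14.03 at 20 months) and in adipose tissue (2.96 to 15.1, then 10.98 to 150.04), all 4 red blood cell markers were higher in liver (519 to 670.4, then 790 to 1047), 2 of 4 mesothelial markers were lower in adipose tissue (53.9 to 117, then 29.9 to 62.6), and 4 of 5 macrophage markers were lower in muscle (71.2 to 145, then 29.3 to 59.4). In muscle 2 of 4 red blood cell markers were lower (333 to 577 at 5 months, 236 to 494 at 20 months). Macrophage markers in adipose tissue went both ways, *Adgre1* higher and *Cd163* lower (2 of 5 called, summed value 316 to 542, then 385 to 1227). Single markers were called in 5 further cases, given here with the summed value of their whole list: *Wt1* of mesothelium (1 of 4, 3.49 to 8.15, then 7.37 to 19.7) and *Cidec* of adipocytes (1 of 2 tested, lower, 152 to 236, then 33.0 to 209) in liver, *Hba-a1* of red blood cells in adipose tissue (1 of 4, lower, 539 to 1299, then 250.3 to 655), and *Cela1* of exocrine pancreas, the 1 tested of 5, higher in liver (3.42 to 10.7, then 10.4 to 14.9) and adipose tissue (3.21 to 11.8, then 16.1 to 29.7). At 20 months 4 of 5 pancreas markers were at 0 throughout in liver and 3 of 5 in adipose tissue, and 2 of 5 adipocyte markers in liver. Their part in the clock gene values was not tested, and in bulk tissue fewer cells of a type and less RNA per cell cannot be told apart.

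Values are reads per gene as CPM divided by a factor of each sample, as deposited, and are listed below in the order of mice X5L4299, X5L5001, X5L5238 and X5L5239 at 5 months and of rising sample number at 20 months. A log2 change is the difference of mean log2(value + 1), 20 minus 5 months, and understates the change of low values. A gene was called where limma with Benjamini-Hochberg adjustment over all genes tested gave an adjusted p under 0.05. By that rule 3 of the 10 clock genes were called in liver (at 20 months 2 higher, 1 lower), 3 in adipose tissue (all of them lower) and 5 in muscle (2 higher, 3 lower). Of all genes tested, 19.8% were called in liver (10% higher, 9.79% lower), 19.1% in adipose tissue (9.75% higher, 9.35% lower) and 19.3% in muscle (9.13% higher, 10.1% lower). The median log2 change of the 10 genes was -0.26 in liver, -0.58 in adipose tissue and -0.0047 in muscle, beside 0.0011, 0.0072 and 0.0168 over all genes tested. The medians join opposite directions, since *Arntl*, *Npas2*, *Per1* and *Cry1* had negative changes in each tissue and *Dbp*, *Per3* and *Nr1d2* positive ones.

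**Figure D1:**
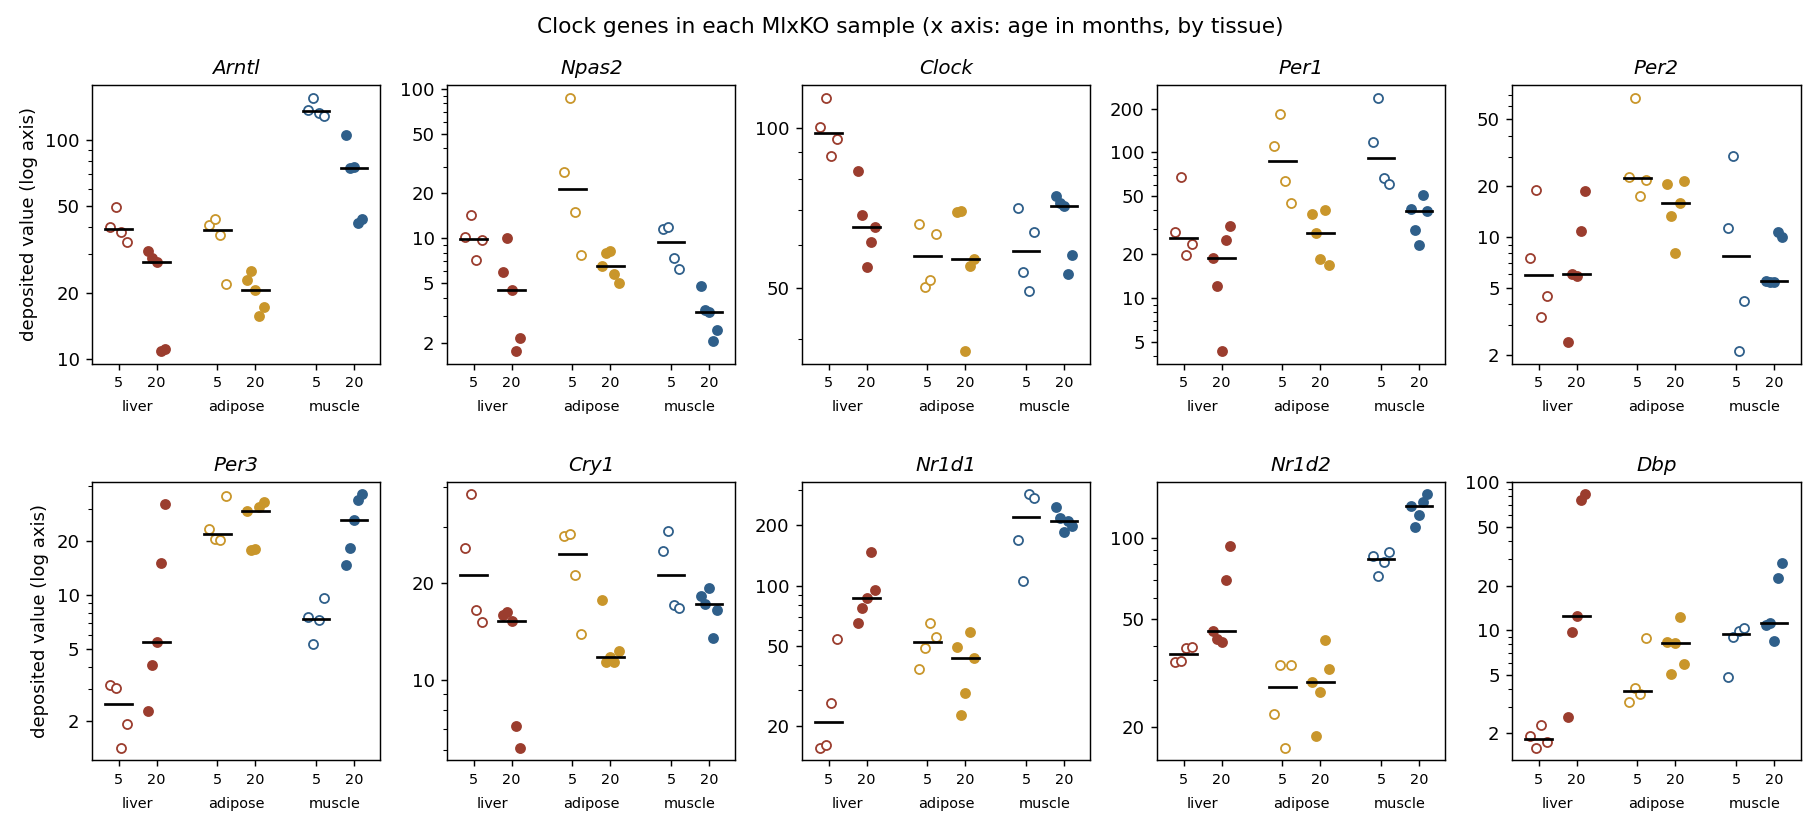
Deposited value (log axis) of each clock gene in each sample, by tissue and age in months; open points are mice of 5 months, filled points samples of 20 months, and bars are medians. In liver, *Dbp* lay at 1.60 to 2.28 in the 4 mice of 5 months and at 2.595 to 82.6 in the 5 samples of 20 months.

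**Figure D2:**
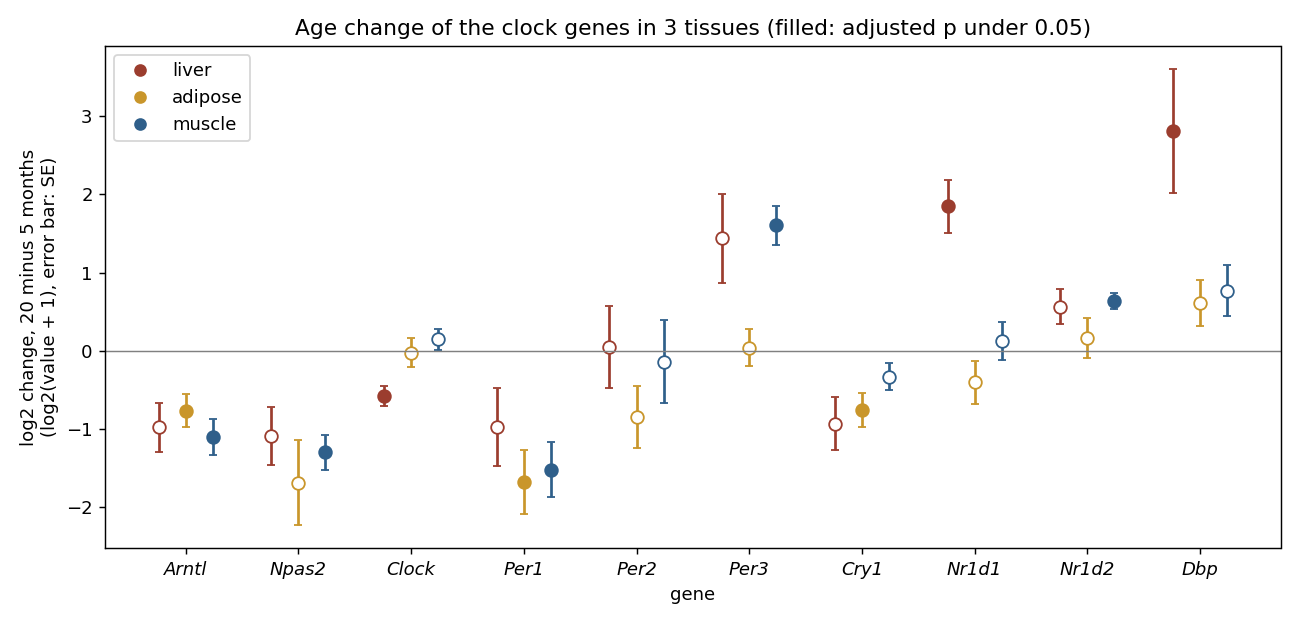
Log2 change from 5 to 20 months of each clock gene in liver, adipose tissue and muscle; error bars are standard errors and filled points have a limma adjusted p under 0.05. *Arntl*, *Npas2*, *Per1* and *Cry1* lie below 0 in all 3 tissues, and *Dbp*, *Per3* and *Nr1d2* above it, with *Per3* at 0.04 and *Nr1d2* at 0.17 in adipose tissue.

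The activators. *Arntl* (gene 11865; chromosome 7, 113178471 to 113314126) was lower at 20 months in adipose tissue and muscle. In muscle, where its value was highest, it stood at 137, 157, 134 and 129 at 5 months and at 106, 74.7, 75.2, 41.8 and 43.5 at 20 months. Each older muscle lay below every younger one, with the lowest values in samples 59 and 60 (log2 change -1.10 ± 0.234 SE, limma adjusted p = 0.0110). Adipose tissue gave 40.9, 43.5, 36.6 and 22.1 at 5 months and 22.9, 25.3, 20.7, 15.6 and 17.2 at 20 months, and the ages overlapped only through mouse X5L5239 (log2 change -0.76 ± 0.211 SE, limma adjusted p = 0.0379). In liver the values were 40.2, 49.2, 37.9 and 34.1 at 5 months and 31.1, 28.8, 27.6, 10.85 and 11.03 at 20 months. The liver ages did not overlap either, samples 19 and 74 were the lowest of that age, and the difference missed the threshold (log2 change -0.98 ± 0.315 SE, limma adjusted p = 0.0501).

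*Npas2* (gene 18143; chromosome 1, 39193702 to 39363240), the relative of *Clock* that can take its place beside BMAL1, went with *Arntl*. Its muscle values were 11.6, 11.9, 7.36 and 6.27 at 5 months and 4.82, 3.32, 3.18, 2.06 and 2.42 at 20 months, without overlap (log2 change -1.30 ± 0.225 SE, limma adjusted p = 0.00454). In adipose tissue the 4 younger mice spread over 11.3-fold, at 27.6, 87.6, 15.0 and 7.77, against 6.48, 7.98, 8.24, 5.74 and 5.05 in the older samples (log2 change -1.68 ± 0.545 SE, limma adjusted p = 0.0556). Liver held 10.1, 14.3, 7.13 and 9.68 at 5 months and 5.95, 10.1, 4.51, 1.76 and 2.16 at 20 months (log2 change -1.09 ± 0.372 SE, limma adjusted p = 0.0595). All 5 older samples lay below the mean of the younger mice in each of the 3 tissues. *Clock* (gene 12753; chromosome 5, 76209868 to 76305603), the activator whose mRNA is known to vary little over the day, was called lower in liver. Its liver values of 100.04, 114, 88.3 and 95.01 at 5 months and 82.7, 68.4, 54.6, 60.9 and 65.1 at 20 months did not overlap (log2 change -0.58 ± 0.128 SE, limma adjusted p = 0.0151). *Clock* ranged from 38.01 to 69.6 in adipose tissue and from 49.2 to 74.2 in muscle, with the ages overlapping (limma adjusted p = 0.938 and 0.453).

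The repressors. *Per1* (gene 18626; chromosome 11, 69095108 to 69109965), a period gene that also responds at once to glucocorticoid and cAMP signals, fell in 2 tissues. In adipose tissue its values were 110.1, 184, 63.2 and 44.9 at 5 months and 37.99, 27.99, 18.5, 40.1 and 16.9 at 20 months. Muscle gave 117, 238, 66.8 and 61.1, then 40.9, 29.5, 23.1, 51.2 and 39.3. Neither pair of groups overlapped, mouse X5L5001 was the highest sample of each, and the log2 changes were -1.67 ± 0.411 SE (limma adjusted p = 0.0288) and -1.52 ± 0.354 SE (limma adjusted p = 0.0154). Liver held 28.5, 68.01, 19.7 and 23.4 and then 18.8, 12.1, 4.35, 24.99 and 31.2, where the ages overlapped (log2 change -0.97 ± 0.498 SE, limma adjusted p = 0.181).

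*Per2* (gene 18627; chromosome 1, 91415977 to 91459351) was called in no tissue, and its values were among the most uneven between mice. The 4 younger muscles held 11.3, 30.2, 2.11 and 4.18, a 14.3-fold range, and the older ones 5.48, 5.39, 5.42, 10.7 and 10.05. In liver the values were 7.51, 19.1, 3.35 and 4.48 and then 2.39, 6.06, 5.89, 10.9 and 18.9, and in adipose tissue 22.8, 67.2, 17.6 and 21.9 and then 20.51, 13.4, 8.03, 15.98 and 21.7. The log2 changes were 0.05 in liver, -0.84 in adipose tissue and -0.14 in muscle (limma adjusted p = 0.954, 0.139 and 0.874).

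*Per3* (gene 18628; chromosome 4, 150997018 to 151044707), the period gene with the D-box letters shown above, rose in muscle. There its values were 7.53, 5.32, 7.28 and 9.69 at 5 months and 14.6, 18.3, 26.0, 33.4 and 36.1 at 20 months, without overlap (log2 change 1.61 ± 0.250 SE, limma adjusted p = 0.00315). In liver it stood at 3.18, 3.06, 1.43 and 1.92 and then at 2.29, 4.11, 5.52, 15.0 and 32.1, with sample 16 inside the range of the younger mice and sample 74 at 14.03 times the value of sample 16 (log2 change 1.44 ± 0.567 SE, limma adjusted p = 0.0921). Adipose tissue held 23.3, 20.505, 20.1 and 35.5 and then 29.2, 17.8, 18.05, 30.7 and 32.95, a log2 change of 0.04 (limma adjusted p = 0.913). The lowest *Per3* value, in liver, rested on 20 reads.

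*Cry1* (gene 12952; chromosome 10, 85131700 to 85185054), the cryptochrome that acts late in the cycle, fell in adipose tissue. Its values there were 28.2, 28.5, 21.3 and 13.9 at 5 months and 17.8, 11.4, 11.7, 11.3 and 12.3 at 20 months (log2 change -0.75 ± 0.219 SE, limma adjusted p = 0.0419). Mouse X5L5239 and sample 36 brought the ages into overlap. Liver gave 25.9, 37.97, 16.5 and 15.1 and then 15.9, 16.2, 15.2, 7.16 and 6.11 (log2 change -0.93 ± 0.338 SE, limma adjusted p = 0.0725), and muscle 25.3, 29.2, 17.1 and 16.7 and then 18.3, 17.3, 19.4, 13.4 and 16.5 (log2 change -0.33 ± 0.171 SE, limma adjusted p = 0.181).

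The nuclear receptors. *Nr1d1* (gene 217166; chromosome 11, 98767932 to 98775377) was higher in older liver. Its liver values were 15.5, 16.1, 25.8 and 53.98 at 5 months and 64.7, 77.6, 86.4, 146 and 95.4 at 20 months, 27.8 ± 18.1 (SD, n = 4) against 94.1 ± 31.4 (SD, n = 5). Every older liver exceeded every younger one, a 3.38-fold difference of the means (log2 change 1.85 ± 0.340 SE, limma adjusted p = 0.00969). The other tissues showed no call: adipose tissue ranged from 38.4 to 65.2 at 5 months and from 22.6 to 58.5 at 20 months, and muscle from 105 to 284 and from 186 to 245 (limma adjusted p = 0.285 and 0.735). *Nr1d1* shares 1075 bases with *Thra* on the other strand, and whether the counting used strand is not given in the sources used here, so reads of the pair may be mixed. *Nr1d2* (gene 353187; chromosome 14, 18204056 to 18239106), the second REV-ERB gene, rose in muscle, from 85.6, 72.5, 81.8 and 88.5 to 131, 109, 121, 136 and 145. The ages did not overlap and the mean at 20 months was 1.57 times that at 5 months (log2 change 0.64 ± 0.101 SE, limma adjusted p = 0.00330). In liver it held 34.8, 35.1, 39.2 and 39.5 and then 45.2, 42.4, 41.4, 70.1 and 93.1, again without overlap but short of the threshold (log2 change 0.57 ± 0.223 SE, limma adjusted p = 0.0922). Adipose tissue ranged from 16.8 to 34.1 and from 18.6 to 41.9 (limma adjusted p = 0.647).

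The output gene. *Dbp* (gene 13170; chromosome 7, 45705100 to 45710203) encodes a bZIP factor that carries the rhythm from E-boxes to D-box genes of metabolism. In liver it stood at 1.91, 1.60, 2.28 and 1.76 at 5 months and at 2.595, 9.67, 12.5, 76.3 and 82.6 at 20 months. The younger livers were within 1.43-fold of each other, the older ones spread over 31.8-fold, and no older value reached down to the younger ones (log2 change 2.81 ± 0.795 SE, limma adjusted p = 0.0332). Muscle held 4.84, 8.95, 9.86 and 10.2 and then 10.9, 11.1, 8.46, 22.5 and 28.2 (log2 change 0.77 ± 0.325 SE, limma adjusted p = 0.110), and adipose tissue 3.25, 4.06, 3.68 and 8.85 and then 8.31, 5.02, 8.21, 12.3 and 5.88 (log2 change 0.62 ± 0.293 SE, limma adjusted p = 0.144). *Dbp* shares 741 bases with *Sphk2* on the other strand, with the same limit as for *Nr1d1* and *Thra*.

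The calls differed in how far they rested on single samples. All 5 calls in muscle and the calls of *Clock* and *Nr1d1* in liver were kept when any 1 sample was left out. The *Dbp* call in liver was lost without liver sample 18 (limma adjusted p = 0.0629) or 19 (0.0647) and without mouse X5L4299 (0.0699), X5L5001 (0.0828), X5L5238 (0.0617) or X5L5239 (0.0650). Without liver sample 16, 4 more genes passed in liver, *Arntl* (limma adjusted p = 0.0202), *Npas2* (0.0418), *Per3* (0.0233) and *Cry1* (0.0454), and *Npas2* also passed without sample 17 (0.0305). In adipose tissue the calls of *Arntl* and *Cry1* were lost without sample 37, 38, 39 or 40 or mouse X5L4299, X5L5001 or X5L5238, and that of *Per1* without any of the same samples but X5L5238 (limma adjusted p up to 0.104, 0.116 and 0.0820). Without mouse X5L5239, *Npas2* and *Dbp* passed in adipose tissue (limma adjusted p = 0.0163 and 0.0317). In fits over all genes without a filter on low values, *Dbp* in liver and *Arntl* and *Cry1* in adipose tissue missed the threshold (limma adjusted p = 0.0654, 0.0610 and 0.0687), and with all 27 samples in 1 fit so did *Npas2* and *Nr1d2* in muscle (0.0508 and 0.0572). Other differences that missed the threshold passed under an alternative. *Arntl* in liver did so with median-of-ratios factors (limma adjusted p = 0.0464), in DESeq2 (0.0265) and with all 27 samples in 1 fit (0.0177). *Cry1* in liver passed in DESeq2 (adjusted p = 0.0269) and in the fit of 27 samples (0.0194), and *Per3* in liver in edgeR (0.0460), DESeq2 (0.0153) and that fit (0.0199). *Npas2* in adipose tissue passed in edgeR (adjusted p = 0.0314), DESeq2 (0.000476) and that fit (0.00582), and in DESeq2 alone so did *Nr1d2* in liver (0.0367) and *Dbp* in muscle (0.0411).

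Whether an age change differed between tissues was tested in a fit over all 27 samples. The age change of *Nr1d1* in liver exceeded that in adipose tissue, where it was negative, by 2.25 ± 0.457 SE on the log2 scale (limma adjusted p = 0.00211). It exceeded that in muscle by 1.72 ± 0.457 SE (limma adjusted p = 0.0115). The fall of *Clock* in liver differed from its change in muscle by -0.73 ± 0.221 SE (limma adjusted p = 0.0241), and this call was lost without the liver of mouse X5L5001 (0.0547) or the muscle of mouse X5L5001 (0.0531) or X5L5238 (0.0501). No other clock gene was called, so that 1 of 10 differed between liver and adipose tissue, 2 of 10 between liver and muscle and 0 of 10 between adipose tissue and muscle by limma, against 15.6%, 17.5% and 14.7% of all genes tested. The 0 in the last pair stood in edgeR and DESeq2 as well, and 1 clock gene, *Per3*, had an unadjusted p under 0.05 there. The difference for *Dbp*, 2.19 ± 0.845 SE against adipose tissue and 2.04 ± 0.845 SE against muscle, did not pass (limma adjusted p = 0.0763 and 0.0949) but did so without liver sample 16 (0.00683 and 0.00788), while edgeR (adjusted p = 0.0151 and 0.0194) and DESeq2 (0.000838 and 0.00166) called both. The 3 tests share their tissues' samples.

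The relation between *Dbp* and *Arntl* was then read sample by sample, as the log2 ratio of their values. All ratios here were formed after adding 1 to each value. The added 1 brings the ratio nearer to 0 where *Dbp* is low, as in liver of 5 months. Only the same ratio is compared between samples, since values of different genes are not on a common scale per length. In liver of 5 months it was -3.82, -4.27, -3.57 and -3.67, with the 4 mice close together. Liver of 20 months gave -3.16, -1.48, -1.08, 2.71 and 2.80: sample 16 stood next to the younger mice, samples 17 and 18 between, and samples 19 and 74 on the other side of 0. Muscle gave -4.56, -3.99, -3.63 and -3.54 at 5 months and -3.17, -2.65, -3.01, -0.87 and -0.61 at 20 months, with samples 59 and 60 apart from the other 3. In adipose tissue the ratios were -3.30, -3.13, -3.01 and -1.23, then -1.36, -2.13, -1.24, -0.33 and -1.40, and mouse X5L5239 lay among the older samples. The log2 ratio of *Nr1d1* to *Arntl* followed in liver, at -1.32, -1.55, -0.54 and 0.65 at 5 months and 1.03, 1.40, 1.61, 3.64 and 3.003 at 20 months.

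**Figure D3:**
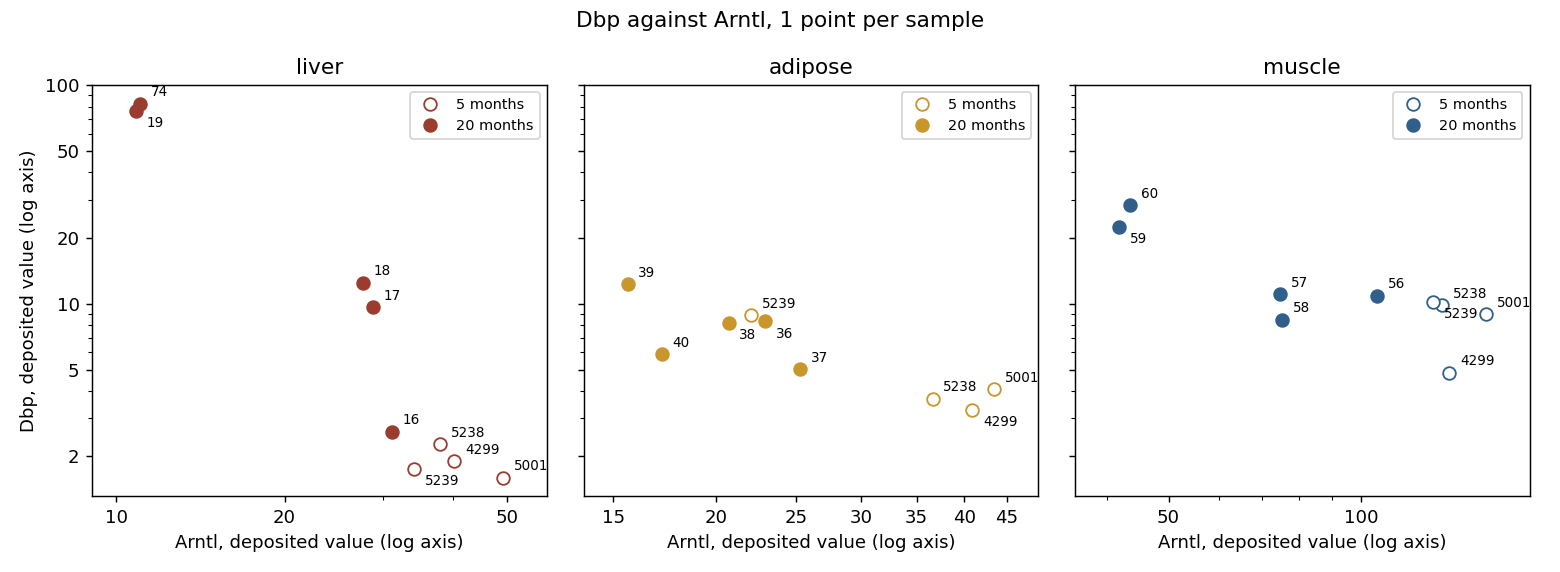
Value of *Dbp* against value of *Arntl* (log axes), 1 point per sample with the number that ends its name, open at 5 months and filled at 20 months. Liver samples 19 and 74 and muscle samples 59 and 60 sit at low *Arntl* and high *Dbp*, and liver sample 16 sits beside the 4 younger livers.

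The same relations were tested with age removed, by correlating deviations from the mean of the same tissue and age over the 9 samples of a tissue. For 7 pairs in 3 tissues, 21 relations, 8 had an adjusted p under 0.05 (exact permutation within ages, two-sided, Benjamini-Hochberg over the 21), and 6 did by rank correlation. The smallest p these permutations can give is 0.000347. In liver, *Npas2* moved with *Arntl* (r = 0.88, rho = 0.90, exact p = 0.0111, adjusted 0.0462), on the same side of the mean in 9 of 9 samples. *Cry1* moved with *Arntl* as well (r = 0.89, rho = 0.87, exact p = 0.00174, adjusted 0.0182), again in 9 of 9. *Nr1d1*, the repressor of *Arntl*, was on the opposite side in 9 of 9 livers (r = -0.60, rho = -0.65, exact p = 0.00382, adjusted 0.0267). *Dbp* ran opposite to *Arntl* (r = -0.93, rho = -0.93, exact p = 0.00590, adjusted 0.0310) and with *Per3* (r = 0.92, rho = 0.88, exact p = 0.0177, adjusted 0.0465). *Dbp* and *Arntl* lay on opposite sides of the mean in 7 of 9 livers, and *Dbp* and *Per3* on the same side in 7 of 9. By rank correlation these 2 relations missed the threshold (adjusted p by exact permutation 0.0611 and 0.114). Liver samples 19 and 74 lay apart from the others in *Arntl* and were the 2 farthest from its median. They were left out of r but not of the group means from which the deviations were taken. By that reckoning r was 0.71 for *Arntl* and *Npas2*, 0.83 for *Arntl* and *Cry1*, -0.59 for *Arntl* and *Nr1d1* and -0.78 for *Arntl* and *Dbp*. The deviations of the other older livers thus still depended on samples 19 and 74, and these r do not show the relations free of them. For *Dbp* and *Per3* the 2 samples farthest from the median of *Dbp* were 16 and 74. Without these in r, but with the same group means and with sample 19 still included, r was 0.81.

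Muscle showed 3 of the 8 relations. Each r given below without 2 samples again kept group means that include those samples. *Arntl* moved with *Npas2* (r = 0.77, rho = 0.77, exact p = 0.000694, adjusted 0.0146, without the 2 farthest 0.55) and with *Cry1* (r = 0.51, rho = 0.60, exact p = 0.0167, adjusted 0.0465, without the 2 farthest 0.41). *Per1* and *Per2*, which share their acute induction, moved together (r = 0.91, rho = 0.92, exact p = 0.0132, adjusted 0.0462, without the 2 farthest 0.80). *Arntl* and *Dbp* were opposite in 7 of 9 muscles, with r = -0.76 and rho = -0.85 but an adjusted p of 0.119 by exact permutation. *Arntl* and *Nr1d1*, in contrast, gave r = -0.04 in muscle, where *Nr1d1* was on the same side as *Arntl* in 5 of 9 samples. None of the 7 relations passed in adipose tissue. Their signs were those of liver, with r of 0.75 for *Arntl* and *Npas2*, 0.77 for *Arntl* and *Cry1*, -0.79 for *Arntl* and *Dbp* and 0.64 for *Per1* and *Per2* (adjusted p by exact permutation 0.0948, 0.0902, 0.0902 and 0.151), but the relation of *Arntl* and *Dbp* rested on 2 samples, without which r was -0.13. The relation of *Nr1d1* and *Dbp* passed in no tissue (r = 0.45 in liver, 0.55 in adipose tissue and 0.13 in muscle, adjusted p by exact permutation 0.0902, 0.151 and 0.774). A difference between tissues in these relations was not tested.

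With 1 sample left out, and so fewer arrangements to permute, the number of relations past the threshold moved from 8 to between 1 and 10. It was 3 without liver sample 16 or 74, 2 without liver sample 17 or 19, 1 without liver sample 18 and 3 without muscle sample 59. It was 5 without muscle sample 57 or 58 or without the muscle of any 1 of the 4 younger mice. The r themselves kept their sign for all 8 relations in every such run, at 0.82 to 0.92 for *Arntl* and *Npas2*, 0.85 to 0.94 for *Arntl* and *Cry1*, -0.75 to -0.45 for *Arntl* and *Nr1d1*, -0.97 to -0.90 for *Arntl* and *Dbp* and 0.88 to 0.95 for *Dbp* and *Per3* in liver. With a pseudocount of 0.1, *Dbp* and *Per3* in liver (adjusted p by exact permutation 0.0638) and *Arntl* with *Cry1* and *Per1* with *Per2* in muscle (0.0521 each) missed the threshold, and with median-of-ratios factors *Dbp* and *Per3* in liver did (0.0520).

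**Figure D4:**
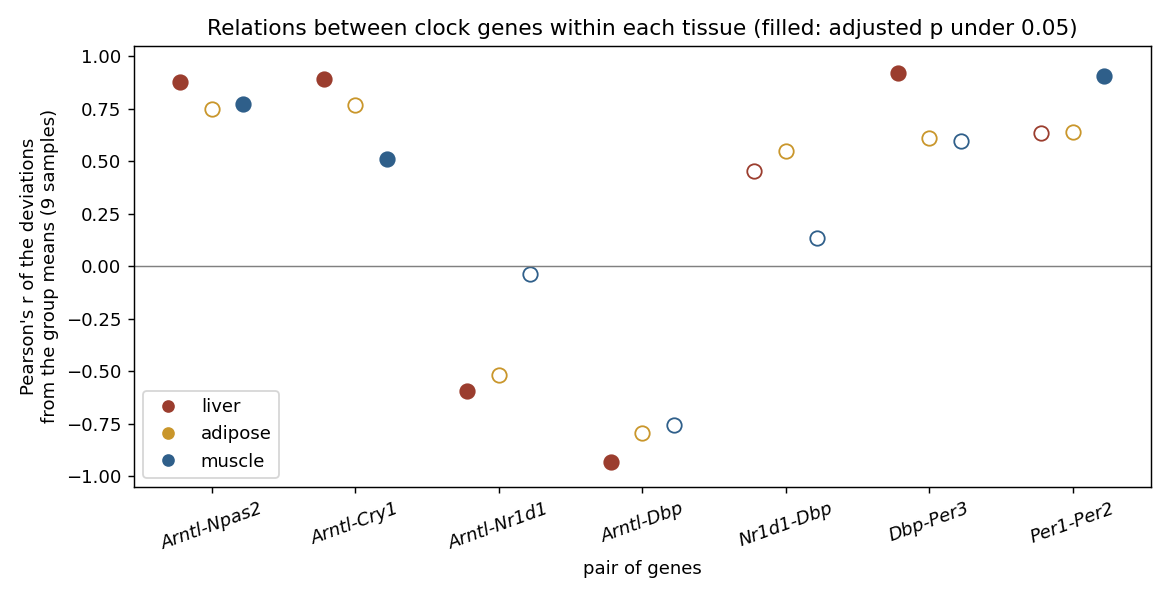
Pearson's r between the deviations of 2 clock genes from their group means over the 9 samples of each tissue; filled points have an adjusted p under 0.05 by exact permutation within ages. *Arntl* with *Dbp* lies at -0.93 in liver, -0.79 in adipose tissue and -0.76 in muscle, and *Arntl* with *Nr1d1* lies at -0.60 in liver and -0.04 in muscle.

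The mice of 5 months, sampled in 3 tissues each, allowed the order of the animals to be compared between tissues. *Arntl* and *Cry1* ranked the 4 mice alike in liver, adipose tissue and muscle, in the order X5L5001, X5L4299, X5L5238 and X5L5239, and *Per2* ranked them X5L5001, X5L4299, X5L5239 and X5L5238 in all 3. Those 3 of 10 clock genes compare with 0.704% of the 10091 genes that had a value of at least 1 in all 12 of these samples. Mouse X5L5001 was the highest in all 3 tissues for *Arntl*, *Npas2*, *Per1*, *Per2* and *Cry1*, 5 of 10 clock genes against 5.81% of those genes, and some mouse was the highest in all 3 tissues for 6 of 10 against 10.4%. The sixth was *Nr1d2*, with mouse X5L5239 highest, which was the lowest mouse for *Arntl* and *Cry1*. *Clock*, *Per3*, *Nr1d1* and *Dbp* had no common highest mouse, although *Nr1d1* was higher in mice X5L5238 and X5L5239 than in X5L4299 and X5L5001 in each tissue. Mouse X5L5001 stood out in other genes too. Of genes induced by glucocorticoids, *Tsc22d3* and *Zbtb16* were highest in it in all 3 tissues, *Fkbp5* and *Klf9* in liver and adipose tissue and *Sgk1* in muscle only. Its adipose tissue had the lowest *Plin1* and *Lep* of that age (50.02 and 17.6). The part of these differences in the order of the clock genes was not tested. The samples of a mouse share their moment of collection and their handling, so the 3 tissues of a mouse are not separate replicates.

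**Figure D5:**
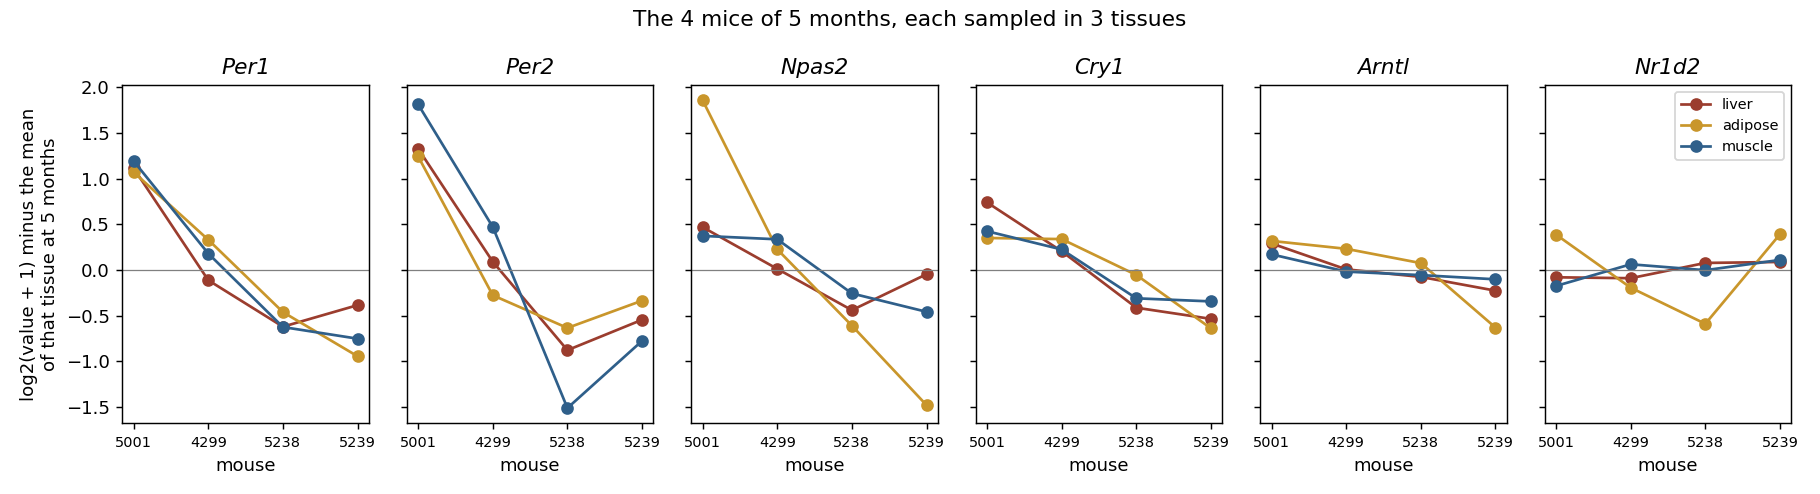
Deviation of log2(value + 1) from the mean of the same tissue at 5 months for 6 clock genes, by the number that ends the name of each mouse; lines join the 4 mice within a tissue and carry no order in time. For *Per1*, *Per2*, *Npas2*, *Cry1* and *Arntl* mouse X5L5001 is the highest in all 3 tissues.

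The levels of the clock genes also differed between tissues, and they were compared within each age. *Arntl* and both REV-ERB genes were highest in muscle. For *Arntl* the means at 5 months were 139 ± 12.01 (SD, n = 4) in muscle, 40.3 ± 6.41 in liver and 35.8 ± 9.57 in adipose tissue, and muscle stood above liver by 1.77 ± 0.187 SE on the log2 scale (limma adjusted p = 1.53e-06) while liver and adipose tissue could not be separated (adjusted p = 0.343). *Nr1d1* at 5 months was 208 ± 86.3 in muscle, 52.0 ± 11.3 in adipose tissue and 27.8 ± 18.1 in liver. At 20 months its order was 211 ± 22.4 (SD, n = 5) in muscle, 94.1 ± 31.4 in liver and 40.7 ± 14.7 in adipose tissue. Liver and adipose tissue thus changed places, liver standing 1.04 ± 0.386 SE below adipose tissue at 5 months (limma adjusted p = 0.0267) and 1.21 ± 0.233 SE above it at 20 months (limma adjusted p = 0.000171), which is the difference already tested above. *Nr1d2* was higher in muscle than in liver by 1.12 ± 0.190 SE at 5 months and 1.19 ± 0.221 SE at 20 months (limma adjusted p = 0.000126 and 0.000107).

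*Per3* and *Per2* were at their highest mean in adipose tissue at 5 months. *Per3* stood at 24.9 ± 7.22 (SD, n = 4) there, 7.45 ± 1.79 in muscle and 2.40 ± 0.860 in liver, and each neighbour in that order differed (1.60 ± 0.235 SE between adipose tissue and muscle and 1.33 ± 0.235 SE between muscle and liver, limma adjusted p = 4.5e-05 and 0.000185). At 20 months adipose tissue and muscle held 25.7 ± 7.28 (SD, n = 5) and 25.7 ± 9.29 (limma adjusted p = 0.955), and liver 11.8 ± 12.4. *Dbp* had means of 8.47 ± 2.48 in muscle, 4.96 ± 2.61 in adipose tissue and 1.89 ± 0.291 in liver at 5 months, and none of its differences between tissues passed at 20 months (limma adjusted p = 0.109, 0.625 and 0.253). *Clock* was higher in liver than in adipose tissue and muscle at 5 months by 0.78 and 0.74 on the log2 scale (± 0.139 SE, limma adjusted p = 0.000202 and 0.000291), and not separable at 20 months (0.218 and 0.935). *Cry1* did not differ between tissues at 5 months (limma adjusted p = 0.878 to 0.970).

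Of the 10 clock genes, 7 were called in each pair of tissues at 5 months, liver against adipose tissue, liver against muscle and adipose tissue against muscle, where 75.2%, 74.5% and 71.5% of all genes tested were called. At 20 months the numbers were 4, 6 and 5 against 76.4%, 79.4% and 78.1%. Over all genes tested, the median difference between adipose tissue and muscle was 0.14 at 5 months and 0.15 at 20 months, beside which the differences of the clock genes can be read. Several of these calls rested on single samples. At 5 months, *Per1* and *Per2* between liver and adipose tissue were each lost without the adipose tissue of mouse X5L5001 or the liver of mouse X5L5238 or X5L5239 (limma adjusted p up to 0.0639 and 0.0766). *Nr1d1* there was lost without the adipose tissue of mouse X5L5238 or X5L5239 or the liver of mouse X5L4299 or X5L5001 (up to 0.0842) and in edgeR (0.0931), and *Nr1d2* without the adipose tissue of mouse X5L4299 or X5L5238 or the liver of mouse X5L5238 or X5L5239 (up to 0.0772). *Npas2* there missed the threshold (limma adjusted p = 0.0670) but passed with the mouse as a block (0.0181), which raised the calls in this pair to 8. Between adipose tissue and muscle at 5 months, *Dbp* was lost without the adipose tissue of mouse X5L4299, X5L5001 or X5L5238 or the muscle of mouse X5L5001, X5L5238 or X5L5239 (up to 0.0943), *Npas2* without the adipose tissue of mouse X5L4299 or X5L5001 or any 1 muscle (up to 0.116), and *Per2* without the adipose tissue of mouse X5L4299 or X5L5001 or the muscle of mouse X5L5238 or X5L5239 (up to 0.124). At 20 months, *Cry1* between liver and muscle was lost without liver sample 19 or 74 or muscle sample 56, 57, 58 or 60 (up to 0.128), and *Per2* between liver and adipose tissue without liver sample 16, 17 or 18 or adipose sample 36, 39 or 40 (up to 0.0992). *Per2* between adipose tissue and muscle at 20 months was lost without adipose sample 36 or 40 or muscle sample 56, 57 or 58 (up to 0.0639). In edgeR and DESeq2, *Per2* between adipose tissue and muscle at 5 months (adjusted p = 0.129 and 0.0810), *Per2* between liver and adipose tissue at 20 months (0.0781 and 0.0715) and *Cry1* between liver and muscle at 20 months (0.0808 and 0.0630) were lost, while *Npas2* between liver and adipose tissue at 5 months passed (0.0228 and 0.00332). The calls of *Per3* between liver and the other tissues at 20 months were lost in edgeR (adjusted p = 0.0654 and 0.0669). Without a filter, the calls of *Dbp*, *Npas2* and *Per2* between adipose tissue and muscle at 5 months (limma adjusted p = 0.0573, 0.0731 and 0.0643) and at 20 months those of *Per2* between liver and adipose tissue (0.0569) and *Cry1* between liver and muscle (0.0717) were lost, as was *Npas2* between adipose tissue and muscle with median-of-ratios factors (0.0586).

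How much the clock genes varied between mice of the same tissue and age was described by the pooled SD of log2(value + 1). In liver 8 of 10 lay in the top 10% of the genes tested there, in muscle 6 of 10 and in adipose tissue 3 of 10. The median SD of the 10 genes was 0.646 in liver, 0.444 in muscle and 0.454 in adipose tissue, beside 0.237, 0.213 and 0.259 over all genes. *Dbp* in liver, with an SD of 1.48, exceeded 99.9% of genes, *Per3* 99.3% and *Per2* 99.1%. *Clock* was the quiet member in liver, with an SD of 0.193, larger than that of 34.1% of genes. In adipose tissue *Npas2* varied most of the 10 (SD 0.951), in muscle *Per2* (SD 1.01), and *Nr1d2* in muscle varied least (SD 0.143).

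The genes whose deviations were most like those of *Arntl* over all 27 samples, among 11014 genes, were *Nfil3* (r = 0.78), a repressor that competes with DBP at D-boxes, *Cry1* (0.78), *Cdkn1a* (0.77), *Pnrc1* (0.77) and *Zfp628* (0.77). The most opposite were *Dbp* (-0.84), *Per3* (-0.82), *Ciart* (-0.76), a repressor of the clock, *Smco4* (-0.70) and *Stard4* (-0.69). *Dbp* was followed most closely by *Per3* (0.85), *Ciart* (0.84), *Stard4* (0.77), *Tef* (0.74), which encodes another D-box factor, and *Il13ra1* (0.71). The most opposite to *Dbp* after *Arntl* were *Ubqln4* (-0.82), *Leo1* (-0.77), *Pdk4* (-0.76) and *Clpx* (-0.76). These values describe 27 samples of which 12 come from the same 4 mice. The deviations were not scaled by tissue, so samples with large deviations weigh most. The SD of *Dbp* was 1.48 in liver against 0.491 in adipose tissue and 0.605 in muscle. Its pattern here is therefore mainly that of liver, and the ranks were not taken tissue by tissue.

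Other genes of the clock and its outputs were described from lists, whose counts stand beside the 19.8% of all genes called in liver, 19.1% in adipose tissue and 19.3% in muscle. Of 15 further clock genes, 1 of 14 tested was called in liver, *Rora*, which encodes the receptor that activates *Arntl* and stood at 124 ± 24.02 (SD, n = 4) at 5 months and 77.1 ± 12.4 (SD over 5 samples) at 20 months (log2 change -0.67 ± 0.150 SE, limma adjusted p = 0.0154). In adipose tissue 0 of 15 were called by limma and by edgeR, 5 by DESeq2, and 8 had an unadjusted limma p under 0.05. Muscle had 7 of 15 called, 3 higher and 4 lower, beside 19.3% of all genes. The largest there were *Nfil3* (159 ± 91.9 to 44.7 ± 22.8, log2 change -1.79 ± 0.374 SE), *Bhlhe41*, an E-box repressor (log2 change 0.997 ± 0.270 SE), *Cry2*, the second cryptochrome (-0.82 ± 0.129 SE), and *Csnk1e*, the kinase that marks PER proteins for breakdown (-0.60 ± 0.116 SE), with limma adjusted p of 0.0104, 0.0270, 0.00325 and 0.00749. *Bhlhe41* was lost without muscle sample 56 or 60 or mouse X5L4299 or X5L5001 (limma adjusted p up to 0.0651), and *Rora*, *Nfil3*, *Cry2* and *Csnk1e* were called under every alternative run. *Cry2* in the 4 younger mice kept the mouse order of *Arntl* and *Cry1* in all 3 tissues.

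Of 12 outputs known from rhythmic liver transcription, 4 were called in liver, 2 higher and 2 lower. *Noct*, a rhythmic phosphatase, stood at 7.03 ± 2.31 (SD over 4 mice) and then at 64.9 ± 38.6 (SD over 5), with a log2 change of 2.90 ± 0.359 SE (limma adjusted p = 0.00424), and *Wee1*, a cell cycle kinase, rose from 4.36 ± 0.909 to 7.75 ± 1.63. *Insig2*, a sterol sensor, fell from 1308 ± 187 to 543 ± 262 and *Por*, the cytochrome P450 reductase, from 1205 ± 481 to 505 ± 202. *Por* was lower in adipose tissue and in muscle too, where with *Usp2* in adipose tissue it made up the calls. Those 2 of 9 and 1 of 8 tested were near or below the 19.1% and 19.3% of all genes called there, and the 4 of 12 in liver stood beside 19.8%. *Noct* and *Insig2* were called under every alternative run. *Wee1* was lost without liver sample 18 or 19 or mouse X5L4299 or X5L5001 (limma adjusted p up to 0.0639), and *Por* in liver without sample 17 or 18 or mouse X5L4299 or X5L5001 (up to 0.0900). In adipose tissue, *Por* was lost without sample 37, 38, 39 or 40 or mouse X5L4299 or X5L5001 (up to 0.0853), and *Usp2* without sample 37, 39 or 40 or mouse X5L4299 or X5L5001 (up to 0.0654).

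A list of 10 acute inputs to the clock, genes induced by glucocorticoids or as immediate early genes, held 5 calls in liver (2 higher, 3 lower), 6 in adipose tissue and 8 in muscle, the calls of both latter tissues all lower at 20 months, beside 19.8%, 19.1% and 19.3% of all genes. The median log2 change was -0.76 in liver, -1.18 in adipose tissue and -1.22 in muscle. *Fkbp5*, a chaperone induced by glucocorticoids, was lower in each tissue, at 158 ± 128 and 41.8 ± 10.6 in liver, 138 ± 36.8 and 35.8 ± 17.2 in adipose tissue and 346 ± 104 and 129 ± 59.7 in muscle (limma adjusted p = 0.0218, 0.00948 and 0.0148). In liver *Sgk1* was lower too (log2 change -1.02), while the immediate early genes *Egr1* and *Junb* were higher (0.94 and 0.76). Each of these liver calls was lost without a filter (limma adjusted p = 0.0627, 0.0575 and 0.0542) and in some runs with 1 sample left out. After *Fkbp5*, the largest change in adipose tissue was that of *Nr4a1* (log2 change -1.80 ± 0.202 SE, limma adjusted p = 0.00417). *Sgk1* and *Sik1* came next there, and both calls were lost in some runs with 1 sample left out. In muscle the largest were those of the immediate early genes *Egr1* (-2.85 ± 0.818 SE) and *Fos* (-2.49 ± 0.727 SE), with limma adjusted p of 0.0333 and 0.0348, and then of *Sik1* (-1.95 ± 0.404 SE, limma adjusted p = 0.00999). *Egr1* was lost without muscle sample 57, 58 or 60 or mouse X5L4299 (limma adjusted p up to 0.0778), *Fos* without any of these or mouse X5L5001 (up to 0.0823), and both without a filter (0.0782 and 0.0810). The calls of *Nr4a1* in adipose tissue, *Sik1* in muscle and *Fkbp5* in both tissues were kept under every alternative run, and that of *Fkbp5* in liver was lost without liver sample 18 (limma adjusted p = 0.0541) or mouse X5L4299 (0.0526). The age change itself differed between liver and muscle for 3 of the 10, *Egr1*, *Fos* and *Junb*, each higher in liver. It differed for 0 of 10 between liver and adipose tissue and for 2 of 10 between adipose tissue and muscle. Of all genes tested, 17.5%, 15.6% and 14.7% were called in these 3 comparisons by limma. Genes of this list were thus called in liver as well, where *Per1* was not, and their part in the *Per1* values was not tested.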

How the data were processed

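RNA was measured in 27 *Mlx*KO samples, grouped by tissue and age from their annotation. Libraries were directional and made from poly(A) RNA. On extraction the sources differ: the annotation names a lipid tissue kit for adipose tissue and muscle and another for liver, and the study's methods name a single kit for all samples, so whether extraction differed by tissue is not settled here. Mapping and counting were done by the authors in CLC Genomics Workbench, and they deposited a scaled signal, that is CPM divided by a factor of each sample. The submitters' processing notes name GRCm38.p6 (mm10), which serves for all coordinates, and whether counting used strand is not given in the sources used here. The design had assumed CPM, and its tests on log2(value + 1) were kept. Division by the value of 1 read returned whole reads for 100% of values (tolerance 0.1 read). The 10 clock genes rested on 20 to 4993 reads in a sample, and all 10 passed the filter in each tissue. Of 48 pairs of samples within groups 0 were identical, and their chi-square over degrees of freedom lay between 9.81 and 217.5.

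Ages were compared within tissues by limma (version 3.58.1, R 4.3.3) with a variance trend. Genes entered with a value reaching 1 in 4 or more of the samples fitted, 12654 in liver, 14005 in adipose tissue and 12720 in muscle. P-values were adjusted by Benjamini-Hochberg, with 0.05 as the threshold. Differences of age changes used 27 samples, and tissue contrasts the 12 or 15 samples of an age. The number that ends a sample name is shared by the 3 tissues of a mouse at 5 months, and the mouse as a block was an alternative. Relations between genes used exact permutations within ages (2880 for each). Fits and relations were tested on simulated data. The other alternatives were a pseudocount of 0.1, no filter, a filter on the mean (5 or more), median-of-ratios factors, no variance trend, recovered reads in edgeR 4.0.16 or DESeq2 1.42.0, all 27 samples in 1 fit, and each sample left out in turn. edgeR called 2578, 2692 and 2453 genes between ages in liver, adipose tissue and muscle. The genes named are the 10 clock genes, the called members of 3 lists (at most the 4 with the largest change per list and tissue), and the 5 genes most like and the 5 most opposite to *Arntl* and to *Dbp*. The clock genes and all lists were chosen with earlier results of these data known. Samples of a group are taken as separate mice, and p-values measure only the spread between these samples.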

Additional observations from a re-analysis of the deposited data

Results flagged for a closer look

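Among 60 groups of 4 or 5 samples (10 genes in 6 groups), 3 held a sample far from the others relative to the range of its group. That is about as many as chance alone would mark, at 1 in 20 groups. *Per2* in adipose tissue of 5 months reached 67.2 in mouse X5L5001, with the next value at 22.8. *Dbp* in adipose tissue of 5 months reached 8.85 in mouse X5L5239, with the next value at 4.06. *Cry1* in adipose tissue of 20 months reached 17.8 in sample 36, with the next value at 12.3. All 3 lie in adipose tissue. Between tissues, the age change differed for *Nr1d1* in liver against adipose tissue, by 2.25 on the log2 scale, for *Nr1d1* in liver against muscle, by 1.72, and for *Clock* in liver against muscle, by -0.73, as tested in the fit over all 27 samples.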

How the results depend on the processing

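Of the values given for single genes and relations, 818 of 897 under alternatives that kept all samples had the same direction and the same side of the threshold. Of the others 59 lost a call, 20 gained one and 0 changed sign. With 1 sample left out the numbers were 968 of 1227, with 224 lost, 17 gained and 18 with another sign. The cause of these shifts was not tested. The number of clock genes called between ages was 7 in DESeq2 and 6 with all 27 samples in 1 fit in liver, 1 without a filter in adipose tissue, and 3 with all 27 samples in 1 fit in muscle. For the difference of the age change between liver and adipose tissue, edgeR and DESeq2 each called 3. Without a filter, 4 were called between adipose tissue and muscle at 5 months. With a pseudocount of 0.1, 5 relations passed and 11 values (gene by tissue) lay in the top 10% of spread, against 17. With 1 sample left out, the calls between ages ranged from 2 to 7 in liver and from 0 to 5 in adipose tissue. Those for the difference of the age change ranged from 1 to 4 for liver against adipose tissue and from 1 to 3 for liver against muscle. Tissue contrasts at 5 months ranged from 4 to 7 for liver against adipose tissue and for adipose tissue against muscle, and relations from 1 to 10.

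Signs that turned with 1 sample left out belonged to values that had missed the threshold. *Per2* ranged from -0.26 to 0.50 in liver and from -0.64 to 0.47 in muscle, *Per3* from -0.059 to 0.22, *Clock* from -0.10 to 0.12 and *Nr1d2* from -0.030 to 0.32 in adipose tissue, *Nr1d1* from -0.16 to 0.31 in muscle, and the r of *Arntl* and *Nr1d1* in muscle from -0.26 to 0.20. Over all genes, calls between ages in adipose tissue numbered 1525 without a filter, 4348 in DESeq2 and 5270 with all 27 samples in 1 fit, against 2674, and in muscle 1507 without a filter against 2451. With the mouse as a replicate block, clock gene calls for differences of the age change numbered 1, 2 and 0, and at 5 months 8, 7 and 7, so that *Npas2* alone changed side. No paired analysis was possible at 20 months or between ages because those groups share no mouse number. Depth limited little here, since even the lowest member value rested on 20 reads.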
